A study of Homo sapiens with 16 samples.

Results

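Mitochondrial ribosomal protein genes are the nuclear genes whose symbols run MRPL or MRPS, a number and at most a letter A, B or C. By that rule 78 of the 35106 genes in the count table were members, and pseudogene rows were left out. RNA was sequenced in 16 libraries of 2 human breast cancer lines that came from pleural effusions. MDA-MB-231, a triple-negative line, gave 5 control libraries and 5 libraries of cells given 500 nM MitoQ for 48 h, at passage 25. SKBR3, a line with an amplified ERBB2 gene, gave 3 control libraries and 3 with the same MitoQ treatment, at passage 10. MitoQ is a ubiquinone tied to a triphenylphosphonium cation that carries it into mitochondria. All cells grew in DMEM with 10% serum, and the sources used here do not say what the controls were given. Nothing in the labels says whether replicates were separate cultures, so the p-values measure only the spread between these libraries, which may be technical.

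The mitochondrial ribosome translates the few mRNAs made from mitochondrial DNA, all of which code for subunits of the respiratory chain and the ATP synthase. Its ribosomal RNAs come from mitochondrial DNA, while every protein is encoded in the nucleus, made in the cytosol and imported. The small subunit reads the mRNA, and the large subunit joins the amino acids and holds the exit tunnel. Many of its proteins have counterparts in bacterial ribosomes, and the others are found only in mitochondria. Of the 78 members, 51 encode large subunit proteins, 30 of them with bacterial counterparts and 21 without. A further 26 encode small subunit proteins, 16 with bacterial counterparts and 10 without. MRPS30 and MRPS18A are named for the small subunit but sit in the large, and they were counted there. MRPS36 codes for a subunit of the 2-oxoglutarate dehydrogenase complex, not of the ribosome, and was kept apart.

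The members lie on 21 chromosomes, and all 78 are protein-coding genes in GENCODE 29. Of these, 77 passed the filter on low counts. MRPL45, a large subunit protein near the exit tunnel, did not: it held 5 counts in MDA-MB-231 control 2, 14 in MDA-MB-231 MitoQ 4, 5 in SKBR3 control 2 and 0 in the other 13 libraries. Of its 31-base stretches 23.0% recur in transcripts of other genes, the pseudogenes MRPL45P2 and MRPL45P1. The same share exceeded 20% in 16 members, and MRPL12 had the most (67.2%, in the overlapping gene AC139530.2). Levels of such members are less certain, since the sources used here do not say how shared reads were divided. Whether reads of MRPL45 were counted under another gene could not be settled from the table, so its low counts are not read as low expression.

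Totals ranged from 14723152 to 29294865 estimated counts per library, which puts the limit of a count of 0 (3 counts) at 0.102 to 0.204 CPM (the counts of a gene scaled to a fixed library size), for counting error only. Marker genes went with the line labels: ERBB2 lay at 5329 CPM in SKBR3 controls and 52.7 in MDA-MB-231 controls, and VIM at 0.180 and 3317. Leukocyte markers summed to at most 1.37 CPM in any library. In MDA-MB-231 the library MitoQ 2 stood apart on the second principal component (-21.7, against 1.23 to 7.81 in the other MitoQ libraries). In SKBR3, control 3 lay at -2.58 on the first component, the other controls at -17.8 and -17.7. No pair of replicates agreed within sampling noise.

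Promoters of 4 members are shown because these genes carry the contrasts described below. MRPS34 had the lowest value in MDA-MB-231, MRPS10 moved in opposite directions in the lines, and MRPL47 and MRPL36 fell in both. Each stretch runs from 150 bases before to 20 bases after the first transcript start that RefSeq lists (GRCh38.p14), 5′ to 3′ on the gene's own strand, which is the minus strand for all 4. Capitals mark matches, on either strand, to the ETS motif CCGGAAG, bound by factors such as GABP, to the NRF1 motif with 1 free base, and to the YY1 motif. The first run of capitals in MRPL36 shows an NRF1 match and the last run in MRPS10 a YY1 match. MRPS34 (chr16:1773115-1773284) has 3 ETS matches. MRPS10 (chr6:42217842-42218011) has an ETS match and a YY1 match that reaches the end of the stretch. MRPL47 (chr3:179604619-179604788) has an ETS match. MRPL36 (chr5:1799818-1799987) has an NRF1 match and a YY1 match.
MRPS34: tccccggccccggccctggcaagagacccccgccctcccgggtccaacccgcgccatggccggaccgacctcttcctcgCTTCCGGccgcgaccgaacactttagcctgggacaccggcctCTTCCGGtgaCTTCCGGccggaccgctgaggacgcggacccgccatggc
MRPS10: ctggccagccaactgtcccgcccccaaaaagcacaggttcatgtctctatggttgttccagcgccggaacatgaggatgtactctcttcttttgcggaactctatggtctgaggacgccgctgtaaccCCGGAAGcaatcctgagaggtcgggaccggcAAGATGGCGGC
MRPL47: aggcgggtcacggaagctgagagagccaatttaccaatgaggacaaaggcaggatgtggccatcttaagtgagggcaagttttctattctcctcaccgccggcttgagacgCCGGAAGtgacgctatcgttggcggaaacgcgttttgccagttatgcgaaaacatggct
MRPL36: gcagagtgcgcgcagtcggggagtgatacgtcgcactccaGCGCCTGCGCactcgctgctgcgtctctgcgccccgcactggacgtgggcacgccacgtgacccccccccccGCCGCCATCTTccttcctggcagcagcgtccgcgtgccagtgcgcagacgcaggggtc

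RefSeq promoters of 300 bases, 250 before to 50 after the start, were at hand for 69 members and 15842 protein-coding genes in all. The YY1 motif was in 10 members (14.5%) and 1.37% of coding genes. The ETS motif was in 29 members (42.0%) and 14.2% of coding genes. NRF1 matches were in 8 members (11.6%) and 8.57% of coding genes. At least 1 of these motifs, which may overlap, was in 41 members (59.4%) and 21.9% of coding genes. The E-box CACGTG was in 6 members (8.70%) and 8.88% of coding genes. Neither TGACGTCA, the cyclic AMP response element, nor TGATGCAA, the amino acid response element, was found in a member window, against 2.59% and 0.669% of coding genes. At shares that low, 69 windows are too few to tell a lack of these motifs from chance. These are letter matches, not binding.

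In MDA-MB-231 cells given MitoQ, genes of both subunits were lower than in controls. Of the 77 members tested, 50 fell and 3 rose at an adjusted p under 0.05 (edgeR quasi-likelihood test, adjusted over all 15304 genes tested), and 24 did not pass. Of all genes tested 27.6% were called lower and 29.9% higher. The median log2 fold change of the members was -0.25, a 1.19-fold lower level, against 0.012 for all genes. Single changes were small, between -0.57 and 0.25, and no member reached 2-fold. In 40 of the members every MitoQ library lay below every control library, as in 21.1% of all genes, and in 3 members every MitoQ library lay above, as in 22.6%. Values are shares of a library's counts, so less of these mRNAs per cell and more of other RNAs cannot be told apart.

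By subunit, 34 of 50 large subunit genes fell and 1 rose, with a median of -0.28, and 15 of 26 small subunit genes fell and 2 rose, with a median of -0.19. Large subunit genes with bacterial counterparts fell in 22 of 30 and rose in none, with a median of -0.28. The large subunit genes found only in mitochondria fell in 12 of 20 and rose in 1, with a median of -0.23. Among small subunit genes 9 of 16 with bacterial counterparts fell and 2 rose (median -0.19), and 6 of the 10 without fell and none rose (median -0.21). The groups of proteins were not tested against each other.

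**Figure D1:**
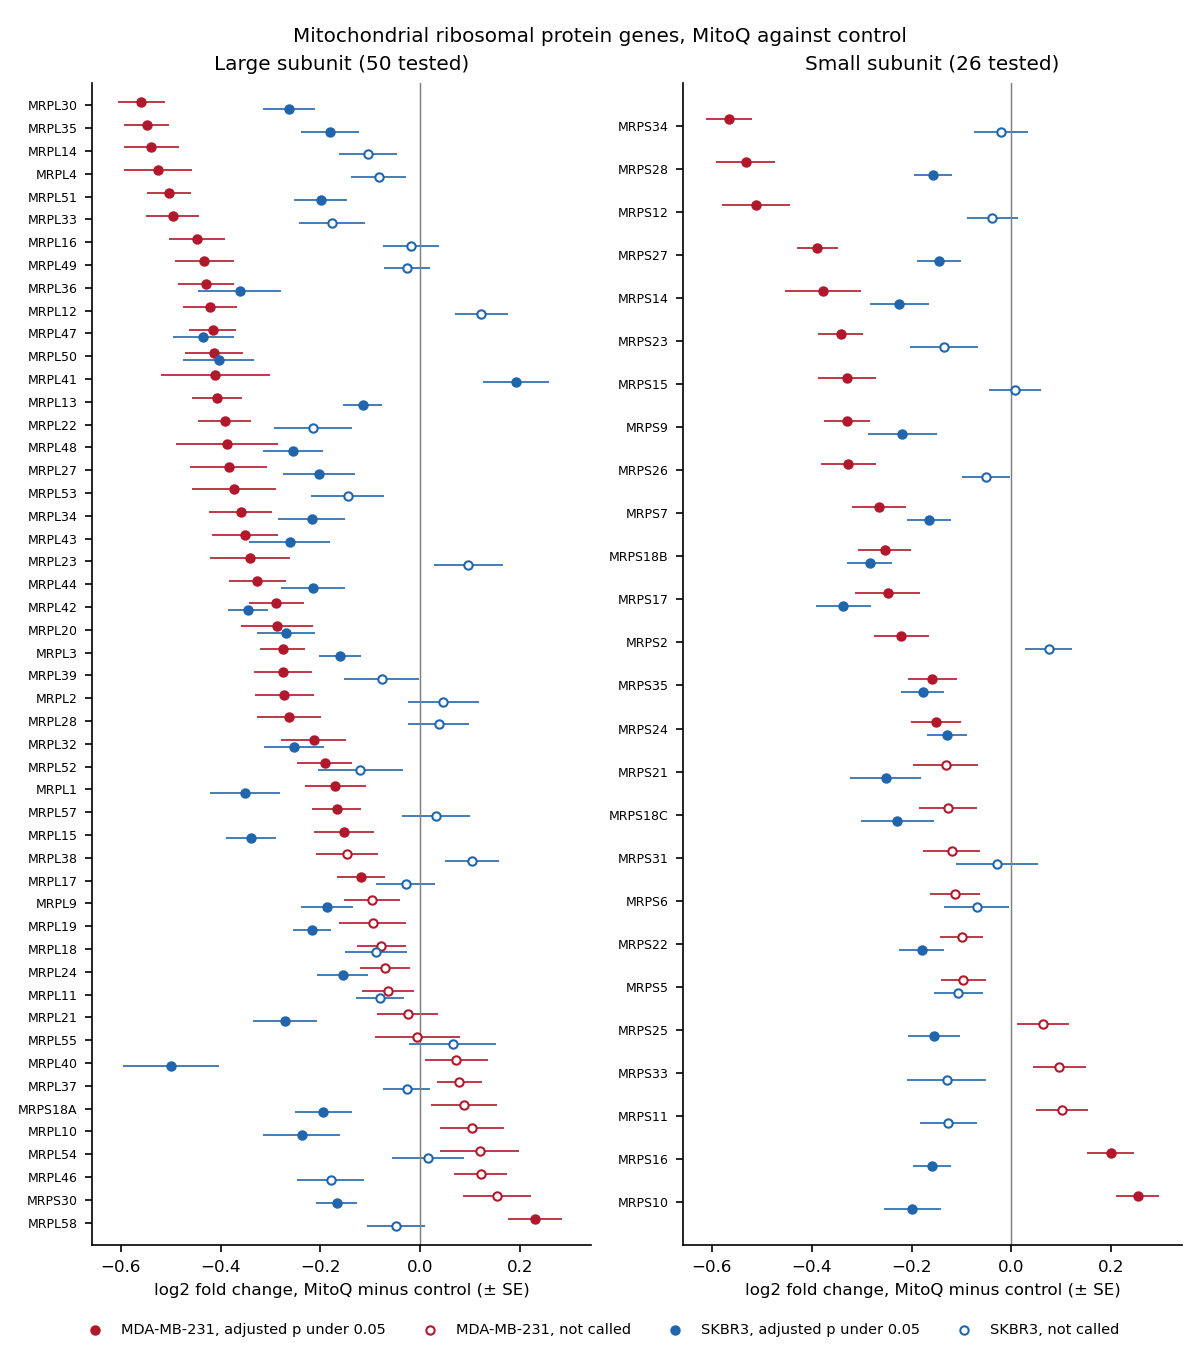
Log2 fold change of each member, MitoQ minus control, in MDA-MB-231 (red) and SKBR3 (blue). Horizontal lines are ± SE, filled points passed the test (adjusted p under 0.05), and open points did not. Most red points lie to the left of 0, from -0.57 (MRPS34) to 0.25 (MRPS10). Blue points spread less and keep another order.

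MRPS34, a small subunit protein found only in mitochondria whose loss makes the small subunit unstable, had the lowest value in MDA-MB-231. The controls held 75.0, 71.6, 70.6, 69.2 and 69.0 CPM and the MitoQ libraries 45.7, 47.7, 46.5, 49.5 and 50.8 CPM. All 5 MitoQ libraries lay well below all 5 controls, at 48.0 ± 2.13 against 71.1 ± 2.43 CPM (SD, n = 5 each). The log2 fold change was -0.57 ± 0.046 (SE, edgeR adjusted p = 5.26e-09). None of its 31-base stretches recur elsewhere.

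MRPL35 and MRPL30, large subunit proteins with bacterial counterparts, came next. MRPL30 held 58.3, 59.4, 59.7, 60.8 and 62.5 CPM in controls and 40.0, 44.2, 40.1, 39.9 and 39.9 CPM with MitoQ. The groups did not overlap, and the library that stood apart, MitoQ 2, was the highest of its group. The change was -0.56 ± 0.047 (edgeR adjusted p = 7.65e-09), and 25.9% of its 31-base stretches recur elsewhere. MRPL35 went from 95.2 ± 2.62 to 65.1 ± 3.04 CPM, with MitoQ 2 at 70.5 CPM and the other MitoQ libraries between 63.4 and 64.2.

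The next members by size were of both subunits. MRPL14, at the surface that meets the small subunit, went from 108 ± 5.55 to 74.3 ± 5.84 CPM (-0.54 ± 0.055). MRPS28 went from 33.0 ± 1.36 to 22.8 ± 1.62 CPM (-0.53 ± 0.059). MRPL4, which lines the exit tunnel, went from 59.9 ± 4.10 to 41.6 ± 4.44 CPM (-0.53 ± 0.068). MRPS12, at the site where codons are read, fell from 42.5 ± 3.59 to 29.8 ± 2.57 CPM (-0.51 ± 0.068). MRPL51 fell from 114 ± 5.39 to 80.7 ± 1.56 CPM (-0.50 ± 0.044). In all 5 of these genes the groups did not overlap. Shares of 31-base stretches found elsewhere were 33.3% for MRPS28, 27.7% for MRPL51 and 22.4% for MRPL4.

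MRPS10, MRPL58 and MRPS16 rose in MDA-MB-231. MRPS10, a small subunit protein with a bacterial counterpart, held 158, 163, 165, 156 and 173 CPM in controls and 194, 196, 206, 190 and 188 CPM with MitoQ. All MitoQ libraries lay above all controls, and the change was 0.25 ± 0.043 (edgeR adjusted p = 5.61e-05). Its promoter, printed above, holds an ETS match and a YY1 match, and a link to the rise was not tested. MRPS16 held 108, 111, 111, 98.2 and 111 CPM in controls and 116, 124, 125, 126 and 129 CPM with MitoQ (0.20 ± 0.047, edgeR adjusted p = 0.00119). Control 4 was the lowest library, the groups were apart, and 23.3% of its 31-base stretches occur in other transcripts. MRPL58, a hydrolase that frees stalled ribosomes from their nascent chain, went from 38.2 ± 1.76 to 44.8 ± 2.79 CPM (0.23 ± 0.055, edgeR adjusted p = 0.00135). Scaled by plain library totals, 9 members rose and 42 fell, against 3 and 50, and without MitoQ 2 the counts were 7 and 51.

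**Figure D2:**
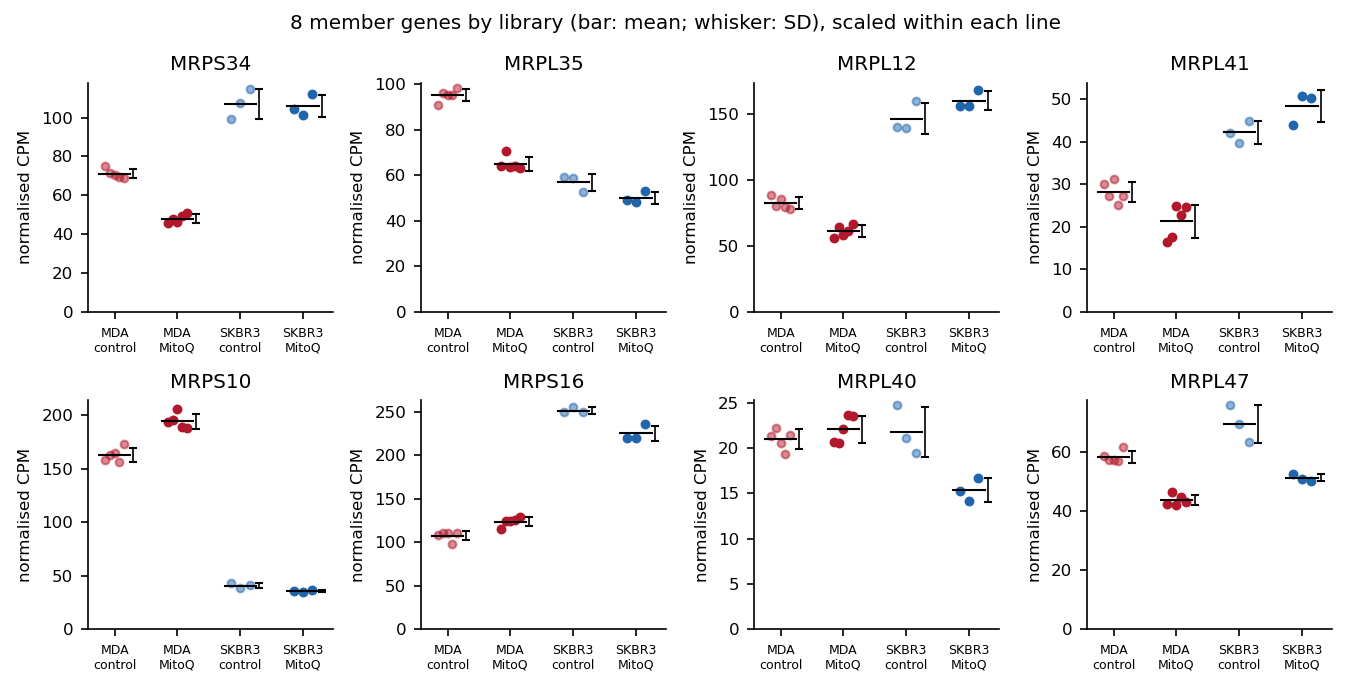
Normalised CPM of 8 members in each library, scaled within each line; points are libraries, bars are means and whiskers are SD (n = 5 in MDA-MB-231, n = 3 in SKBR3). MRPS34, MRPL35, MRPL12 and MRPL41 show lower MitoQ points in MDA-MB-231. MRPS10 and MRPS16 show higher points there and lower points in SKBR3, and MRPL40 differs in SKBR3.

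In SKBR3 cells given MitoQ, members were also lower, by less. Of 77 tested, 42 fell, 1 rose and 34 did not pass (edgeR, adjusted over 15026 genes). Of all genes tested 14.1% were called lower and 13.8% higher. The median of the members was -0.16, a 1.12-fold lower level, against -0.0006 for all genes, and the range was -0.50 to 0.19. In 46 members all 3 MitoQ libraries lay below all 3 controls, as in 21.9% of all genes, and in none did all lie above, as in 20.1%. Large subunit genes fell in 26 of 50 and rose in 1 (median -0.17), and small subunit genes fell in 15 of 26 and rose in none (median -0.15). The count rests on few libraries. It was 27 lower and none higher with DESeq2, 18 and none in a single fit over both lines, and 27, 22 and 19 lower without control 1, MitoQ 1 and MitoQ 2.

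MRPL40, a large subunit protein found only in mitochondria, had the lowest value in SKBR3. Its controls held 24.8, 21.1 and 19.4 CPM and its MitoQ libraries 15.3, 14.1 and 16.8 CPM. The groups did not overlap, though the controls spread widely, and the change was -0.50 ± 0.096 (edgeR adjusted p = 0.00159, n = 3 and 3). In MDA-MB-231 it did not pass the test, at 21.0 ± 1.09 and 22.1 ± 1.49 CPM (0.07 ± 0.062, edgeR adjusted p = 0.340).

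MRPL47, which sits by the exit of the tunnel, held 75.8, 69.2 and 63.2 CPM in SKBR3 controls and 52.5, 50.8 and 50.2 CPM with MitoQ. Every MitoQ library was below every control (-0.43 ± 0.061, edgeR adjusted p = 0.000164). In MDA-MB-231 it fell from 58.3 ± 1.96 to 43.7 ± 1.80 CPM (-0.42 ± 0.047). MRPL50 fell in both lines, with -0.40 ± 0.072 in SKBR3 and -0.41 ± 0.057 in MDA-MB-231. MRPL36, a short protein of the large subunit with a bacterial counterpart, was at -0.36 ± 0.083 and -0.43 ± 0.056. For these 3 genes the differences between lines were 0.02 ± 0.077, 0.05 ± 0.095 and 0.11 ± 0.10 (SE), and none passed the test.

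The other large falls in SKBR3 were those of MRPS36 (-0.38 ± 0.081), MRPL1 (-0.35 ± 0.070), MRPL42 (-0.35 ± 0.040) and MRPL15 (-0.34 ± 0.050). MRPL42 went from 120 ± 1.14 to 94.2 ± 2.87 CPM, with the tightest controls of these genes. In MDA-MB-231 MRPL42 was at -0.29 ± 0.054, while MRPS36, MRPL1 and MRPL15 were between -0.17 and -0.15. These last 3 MDA-MB-231 calls were lost with plain library totals (adjusted p between 0.155 and 0.172) and without several single libraries. MRPL41 was the only member called higher in SKBR3, with 41.9, 39.6 and 44.9 CPM in controls and 44.0, 50.7 and 50.3 with MitoQ. Its groups overlapped, and the change of 0.19 ± 0.065 (edgeR adjusted p = 0.0404) did not pass with DESeq2 (adjusted p = 0.0627), in the single fit (adjusted p = 0.304), or without control 1, control 2, MitoQ 2 or MitoQ 3.

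Set side by side, 28 of the 77 members fell in both lines (36.4%), against 952 of the 13785 genes tested in both (6.91%). Of the members 64.9% were called lower in MDA-MB-231 and 54.5% in SKBR3. Shares that high bring an overlap of this kind even where the lines do not agree gene by gene. Of the 42 SKBR3 calls, 18 held in the single fit, 22 without MitoQ 1 and 19 without MitoQ 2. Fewer than 28 members could thus fall in both lines there. The share of all genes called lower in SKBR3 dropped there too, to 6.25% in the single fit. Of the 28 in the main fits, 18 were of the large subunit, 9 of the small, and 1 was MRPS36. Among these 28 changes ran from -0.56 to -0.15 in MDA-MB-231 and from -0.43 to -0.12 in SKBR3, and 3 were below -0.3 in both (MRPL47, MRPL50 and MRPL36). A further 21 were called lower in MDA-MB-231 alone and 12 in SKBR3 alone, and 12 were called in neither line. MRPS10 and MRPS16 rose in MDA-MB-231 and fell in SKBR3, and MRPL41 did the reverse. Across the 77 members the changes of the lines had a Pearson r of -0.016 and a Spearman rho of 0.014, against 0.218 and 0.186 across all genes tested in both. These describe genes, which are not independent replicates.

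**Figure D3:**
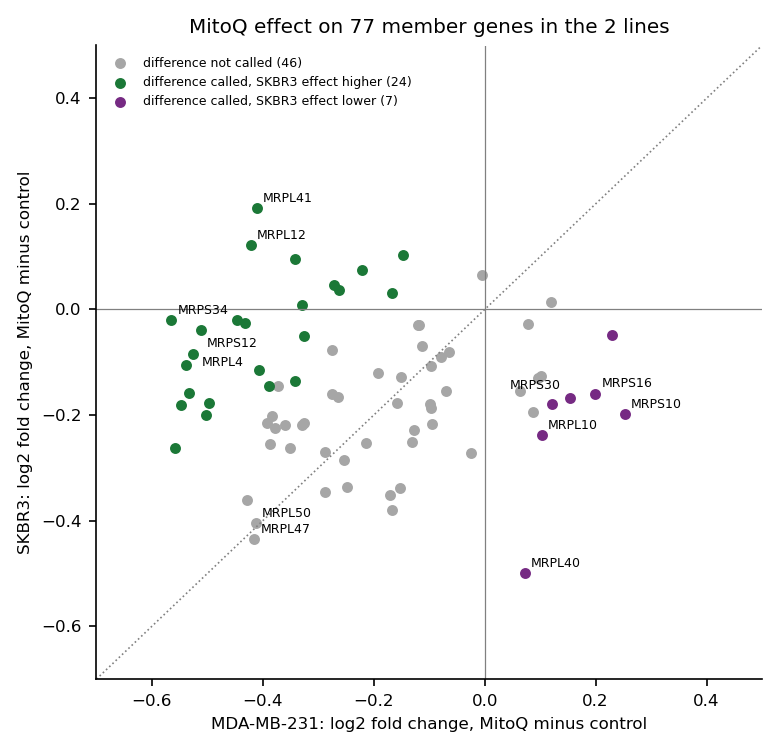
Log2 fold change with MitoQ in SKBR3 against that in MDA-MB-231 for the 77 members tested; the dotted line marks equal change. Green and purple points are the 24 and 7 members whose effect differed between lines at an adjusted p under 0.05. Most points lie below 0 on both axes with no common slope.

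The difference of the MitoQ effect between lines was tested as an interaction over all 16 libraries. It was called in 31 members: 24 had a higher SKBR3 effect and 7 a lower one, against 19.1% and 14.9% of the 17094 genes tested. The median difference was 0.12 for the members and 0.03 for all genes. With plain library totals 21 were higher and 13 lower, with a median of 0.03, and all genes then split into 2458 higher and 3446 lower in place of 3269 and 2554.

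MRPL41 differed most, by 0.65 ± 0.17 (edgeR adjusted p = 0.00579). In MDA-MB-231 it held 30.0, 27.3, 31.2, 25.1 and 27.2 CPM in controls and 16.5, 17.6, 25.0, 22.7 and 24.6 CPM with MitoQ. All MitoQ libraries lay below all controls, but 3 of them lay within 3 CPM of the lowest control (-0.41 ± 0.11, edgeR adjusted p = 0.00494). MRPS34 differed by 0.59 ± 0.079 (edgeR adjusted p = 2.81e-06), with 107 ± 7.54 CPM in SKBR3 controls and 106 ± 5.44 CPM in SKBR3 MitoQ libraries (-0.02 ± 0.054). MRPL12, the stalk protein that recruits translation factors, fell in MDA-MB-231 from 82.3 ± 4.48 to 61.5 ± 4.42 CPM. In SKBR3 it stood at 140, 139 and 160 CPM in controls and 156, 156 and 168 CPM with MitoQ, overlapping groups that did not pass the test (0.12 ± 0.054, edgeR adjusted p = 0.110). It passed without SKBR3 control 3 (0.21 ± 0.044, edgeR adjusted p = 0.00122), with no filter on low counts (0.13, edgeR adjusted p = 0.0251) and with the replicate number as a block (0.13, edgeR adjusted p = 0.0109). The difference between lines for MRPL12 was 0.59 ± 0.090 (edgeR adjusted p = 1.58e-05), with 67.2% of its 31-base stretches shared with the overlapping gene.

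The other large differences in this direction were those of MRPS12 (0.52 ± 0.10) and MRPL4 (0.49 ± 0.11), which did not pass the test in SKBR3. In the opposite direction stood MRPL40 (-0.53 ± 0.12, edgeR adjusted p = 0.000948), MRPS10 (-0.41 ± 0.072, edgeR adjusted p = 9.63e-05) and MRPS16 (-0.31 ± 0.068, edgeR adjusted p = 0.000824). MRPS10 held 43.2, 38.3 and 41.1 CPM in SKBR3 controls and 35.6, 35.1 and 36.5 CPM with MitoQ, without overlap. Its call within SKBR3 was lost with DESeq2 (adjusted p = 0.0507) and without control 1, MitoQ 1 or MitoQ 2 (adjusted p between 0.0760 and 0.126). For MRPS16 in SKBR3 (-0.16 ± 0.038) the call was lost in the single fit (adjusted p = 0.0834) and without control 2, MitoQ 1 or MitoQ 2 (adjusted p between 0.0571 and 0.0894). Differences for MRPL10 (-0.30 ± 0.11), MRPS30 (-0.28 ± 0.096) and MRPL58 (-0.23 ± 0.088) were lost without 1 of several libraries.

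Some members belong together by place or descent. MRPL10, MRPL11 and MRPL12 form the stalk base and stalk: in MDA-MB-231 MRPL12 alone passed the test, with MRPL10 at 0.10 ± 0.064 and MRPL11 at -0.06 ± 0.052. In SKBR3 MRPL10 alone was called (-0.24 ± 0.077, edgeR adjusted p = 0.0319), a call lost in 8 of the alternatives tried. Bacterial S18 has 3 relatives among the members. Above, MRPS18C was counted with bacterial counterparts, and MRPS18A and MRPS18B were counted without. MRPS18B fell in both lines (-0.25 ± 0.053 and -0.28 ± 0.045). MRPS18A stood at 0.09 ± 0.066 in MDA-MB-231, where it passed without MitoQ 2, and at -0.19 ± 0.057 in SKBR3, a call lost in DESeq2, in the single fit over all libraries and without control 3, MitoQ 1 or MitoQ 2. MRPS18C stood at -0.13 ± 0.058 in MDA-MB-231, where it passed in DESeq2, in the single fit and without control 1, MitoQ 2 or MitoQ 3. In SKBR3 it stood at -0.23 ± 0.073, a call lost in DESeq2, in the single fit and without control 1, control 3, MitoQ 1 or MitoQ 3. In the main fit the difference between lines was not called for any of the 3 (edgeR adjusted p = 0.0714 for MRPS18A, 0.955 for MRPS18B and 0.724 for MRPS18C). For MRPS18A it passed with RLE scaling, plain library totals, DESeq2, the filter at 1 CPM and genes of mitochondrial DNA left out. It also passed without MDA-MB-231 MitoQ 2. These adjusted p-values lay between 0.00777 (edgeR, plain library totals) and 0.0498 (DESeq2). The share of 31-base stretches found elsewhere was 49.3% for MRPS18A, which overlaps RSPH9 on the other strand, and 42.7% for MRPS18C. MRPS27, a pentatricopeptide repeat protein that binds ribosomal RNA, fell in both (-0.39 ± 0.042 and -0.15 ± 0.044), but its SKBR3 call was lost in DESeq2, in the single fit and without control 2, control 3, MitoQ 1 or MitoQ 2.

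Summed over each subunit, the members took a smaller share of counts with MitoQ in both lines, with no overlap between groups. In MDA-MB-231 the large subunit share went from 0.277% ± 0.00773 to 0.244% ± 0.00514 and the small subunit share from 0.153% ± 0.00346 to 0.145% ± 0.00185 (SD, n = 5 each). The ratio of large to small was 1.79 to 1.82 in controls and 1.66 to 1.72 with MitoQ, with no overlap. In SKBR3 the large subunit share went from 0.287% ± 0.00221 to 0.263% ± 0.00297 and the small from 0.186% ± 0.000803 to 0.170% ± 0.00111 (n = 3 each). There the ratio was 1.53 to 1.56 in controls and 1.54 to 1.55 with MitoQ, so the groups overlapped. These sums follow the most abundant members and were not tested. Over the same libraries the share of counts on mRNAs of mitochondrial DNA was 3.10% to 3.68% and 0.891% to 1.24% in MDA-MB-231, and 5.67% to 7.08% and 5.15% to 5.26% in SKBR3. Its part in the other shares was not tested. With those genes left out before scaling, 53 members fell and 3 rose in MDA-MB-231, in place of 50 and 3.

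**Figure D4:**
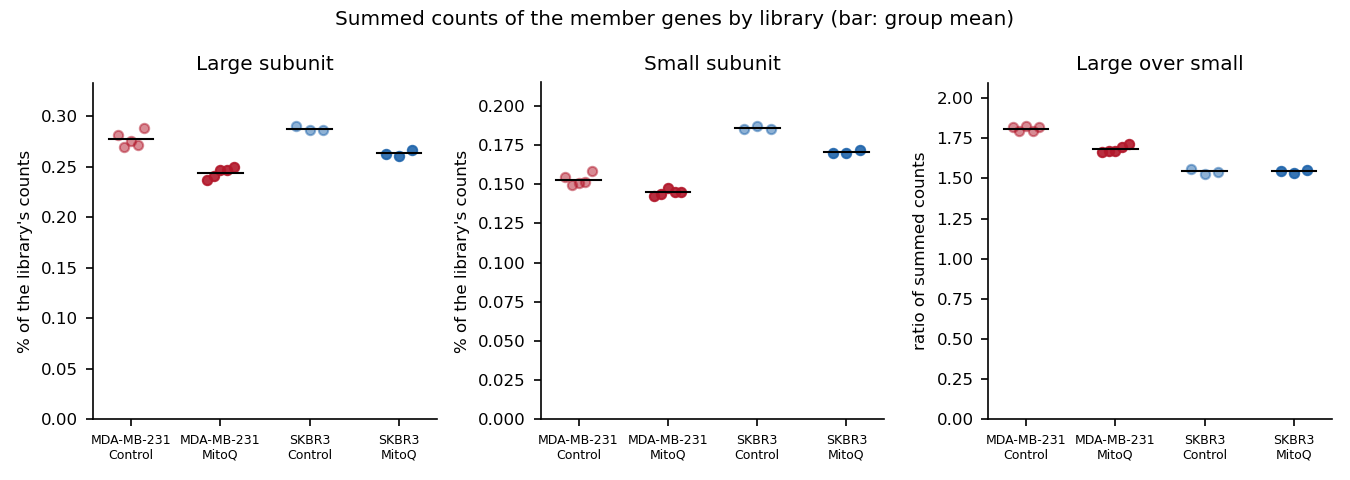
Summed counts of large subunit members (left) and small subunit members (middle) as a percentage of each library's counts, and their ratio (right). Points are libraries and bars are group means. The MitoQ points lie below the control points in both lines for both subunits, and the ratio is apart in MDA-MB-231 and overlaps in SKBR3.

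Without MitoQ the levels of many members differed between the lines, about as often as those of all genes did. Line and passage cannot be told apart here. Of the 77 members 34 (44.2%) were higher and 29 (37.7%) lower in SKBR3 controls than in MDA-MB-231 controls (edgeR). The shares were 42% and 44.4% of the 16398 genes tested, and the median of the members was 0.08. MRPS28 differed most, with 31.6, 31.5, 33.6, 34.5 and 31.3 CPM in MDA-MB-231 and 133, 137 and 133 CPM in SKBR3 (log2 2.04 ± 0.044). MRPL13 (1.55 ± 0.046), MRPL32 (1.31 ± 0.065), MRPL20 (1.30 ± 0.055) and MRPS16 (1.22 ± 0.041) followed. At the other end MRPS10 held 156, 159, 162, 155 and 172 CPM in MDA-MB-231 and 42.5, 37.5 and 41.0 CPM in SKBR3 (-1.99 ± 0.051). MRPL14 (-1.83 ± 0.055), MRPL52 (-1.69 ± 0.071), MRPL43 (-1.59 ± 0.069) and MRPL2 (-1.32 ± 0.059) were also lower. Every one of these 10 genes, picked as the largest called differences, had groups that did not overlap. So had 42.9% of all genes in the lower and 40.1% in the higher direction.

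Per kilobase of the median protein-coding transcript, and scaled to plain library totals, members differed widely in level. That length came from annotation, not from the transcripts these cells express, so the ranks depend partly on it. It was 521 bases for MRPS28 and 3332 for MRPL50. In MDA-MB-231 controls the levels of the 77 ran from 8.74 CPM per kilobase (MRPS14) to 224 (MRPL51), with a median of 49.2. In SKBR3 controls they ran from 8.08 (MRPL50) to 294 (MRPL13), with a median of 45.0. MRPL13 and MRPS28, at 294 ± 9.66 and 260 ± 8.89 CPM per kilobase, led in SKBR3. In MDA-MB-231 they stood 10th and 26th, at 98.8 ± 6.28 and 62.0 ± 2.93. MRPL51 was 1st in MDA-MB-231 (224 ± 10.4) and 3rd in SKBR3 (222 ± 16.2).

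Many members start close to a gene on the other strand. A divergent protein-coding gene began within 1000 bases of 17 members (21.8%), against 7.36% of all 19938 coding genes in GENCODE 29. MRPL47 starts 36 bases from NDUFB5 and the annotated 5′ end of MRPL36 lies 34 bases from NDUFS6, both subunits of respiratory complex I. NDUFB5 fell in both lines (-0.28 in MDA-MB-231, -0.19 in SKBR3), as did NDUFS6 (-0.30 and -0.20). The MRPL36 start printed above lies inside the gene, away from NDUFS6. Other partners went the other way: EME2, a nuclease subunit 52 bases from MRPS34, rose in MDA-MB-231 (0.31), and so did MITD1, 21 bases from MRPL30 (0.21). MRPL46 and MRPS11 are each other's partner, 34 bases apart, and neither was called in either line. Of 16 partners tested in MDA-MB-231, 5 fell and 6 rose, where 27.6% and 29.9% of all genes did, and in SKBR3 3 fell and 1 rose, where 14.1% and 13.8% did. Of the 17 members with a partner, 10 fell in MDA-MB-231 and 9 in SKBR3. Member and partner both fell in 4 pairs in MDA-MB-231 and 2 in SKBR3. Whether that exceeds what the separate shares would give was not tested. TCP1, 63 bases from MRPL18, fell in both lines (-0.54 in MDA-MB-231, -0.20 in SKBR3), while MRPL18 was called in neither.

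Calls were also counted by promoter motif. In MDA-MB-231, 17 of the 29 tested members with an ETS match fell and 3 rose (median -0.28), and of the 39 without it 26 fell and none rose (median -0.22). In SKBR3 15 of the 29 and 20 of the 39 fell. Members with a YY1 match fell in 5 of 10 in MDA-MB-231 (median -0.15) and 7 of 10 in SKBR3 (median -0.20), while those without it fell in 38 of 58 and 28 of 58. Members with an NRF1 match fell in 6 of 7 and 3 of 7, and those without it in 37 of 61 and 32 of 61. These counts describe the windows and were not tested.

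The wider machinery of mitochondrial translation was read from lists chosen by role. The shares over all genes tested, given above, were 27.6% lower and 29.9% higher in MDA-MB-231, and 14.1% lower and 13.8% higher in SKBR3. Proteins of the ribosome under other symbols fell in 3 of 5 in each line (medians -0.19 and -0.15): PTCD3, a pentatricopeptide repeat protein of the small subunit, fell from 174 ± 2.74 to 128 ± 4.56 CPM in MDA-MB-231 and from 135 ± 4.84 to 119 ± 2.63 CPM in SKBR3. The SKBR3 call of PTCD3 was lost without MitoQ 2. DAP3, a GTP-binding protein of the small subunit, fell in both lines (-0.24 ± 0.039 in MDA-MB-231 and -0.15 ± 0.038 in SKBR3, lost there in the single fit and without MitoQ 2). CHCHD1, also of the small subunit, fell in SKBR3 (-0.19 ± 0.051, lost without control 1 or MitoQ 2) and stood at -0.10 ± 0.050 in MDA-MB-231, where it passed in the single fit. Of 28 genes for assembly and ribosomal RNA modification, 9 fell (32.1%, against 27.6% of all genes) and 4 rose in MDA-MB-231 (median -0.10), and 8 fell (28.6%, against 14.1%) and none rose in SKBR3 (median -0.05). C1QBP, a matrix protein tied to ribosome assembly, fell from 304 ± 13.3 to 186 ± 9.78 CPM and from 155 ± 7.23 to 122 ± 2.31 CPM. MRM1, a methylase of the large ribosomal RNA, fell in MDA-MB-231 (-0.49 ± 0.10) and TFB1M, which methylates the small one, in SKBR3 (-0.27 ± 0.084, edgeR adjusted p = 0.0259, lost in 8 of the alternatives tried).

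Of 15 translation factors and mRNA-binding proteins, 9 fell and 2 rose in MDA-MB-231 (median -0.17), and 6 fell and none rose in SKBR3 (median -0.14). SLIRP, which with LRPPRC keeps mitochondrial mRNAs stable, fell by 0.57 ± 0.056 in MDA-MB-231 and by 0.42 ± 0.093 in SKBR3 on the log2 scale. MRRF, the ribosome recycling factor, fell in MDA-MB-231 (-0.46 ± 0.048), and GFM1, an elongation factor, fell in both lines (-0.25 ± 0.043 in MDA-MB-231 and -0.33 ± 0.040 in SKBR3). The mRNAs this ribosome translates fell in 12 of 13 in MDA-MB-231 (median -1.78) and in 4 of 13 in SKBR3 (median -0.39), with MT-CO3 at -2.86 ± 0.080 in MDA-MB-231 and MT-ND5 at -0.57 ± 0.087 in SKBR3. Genes of the cytosolic ribosome, 71 in all, had 26 higher and 1 lower in SKBR3 (median 0.12), and 41 lower and 1 higher in MDA-MB-231 (median -0.21). The SKBR3 count of 26 became 46 without control 1, 17 without MitoQ 3 and 16 in the single fit, and the 1 higher in MDA-MB-231 became 7 with plain library totals, 5 without MitoQ 2 and 2 without MitoQ 1. The difference between lines was called higher in SKBR3 for 53 of the 71, and for 24 of the 77 members.

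**Figure D5:**
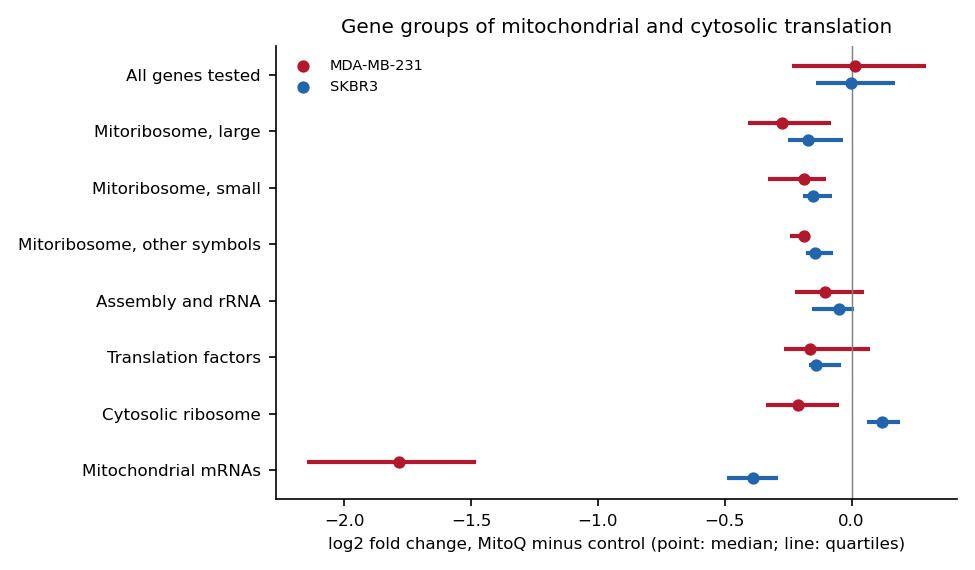
Median (point) and quartiles (line) of the log2 fold change with MitoQ for gene groups in MDA-MB-231 (red) and SKBR3 (blue). Mitochondrial ribosome groups lie left of 0 in both lines. The cytosolic ribosome lies at -0.21 and 0.12, and the mitochondrial mRNAs lie at -1.78 and -0.39.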

How the data were processed

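RNA sequencing of 16 libraries was read from 1 table of estimated counts, which the authors deposited as whole numbers per gene. Salmon, edgeR and the build GRCh38 are named in the submitters' processing notes; versions, annotation release, strand setting and the step from transcripts to genes are not stated in the sources used here. The table held 35106 genes, 8866 without a count. The SKBR3 columns carry the number of the other line in their names and were placed by titles. Groups were line and treatment.

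Each comparison was fitted on the whole table with edgeR 4.0.16 in R 4.3.3: filterByExpr, TMM scaling, a robust quasi-likelihood fit and an F test (two-sided), with p-values adjusted by Benjamini-Hochberg over all genes tested and a threshold of 0.05. The comparisons were MitoQ against control in each line, the interaction of line and treatment, and control against control. SE was taken as |log2 fold change| divided by √F. CPM is scaled within each comparison. The fit was also run on counts simulated from the model it assumes. That checks the code and cannot show the rate of false calls in these libraries. Gene positions and the share of 31-base stretches found in other genes came from GENCODE 29, and promoters from RefSeq (GRCh38.p14); 69 of 78 members matched.

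Named members were the 8 largest called changes in each direction per treatment comparison, the 5 largest for the interaction and the control lines, and a panel of 12 chosen for place or role; of each other list, the 2 largest called. NDUFB5, NDUFS6, EME2, MITD1, TCP1, MRPL18, MRPL46, MRPS11, MRPS14 and MRPL45 were named after their values were seen. Members and lists were chosen with earlier results of these data known. Alternatives were RLE scaling, plain library totals, DESeq2 1.42.0, no filter, a filter at 1 CPM, genes of mitochondrial DNA left out, the replicate number as a block, 1 fit for all 16 libraries, and omission of each library. Members with over 20% of stretches shared left out of the counts, and the same alternatives for the medians, were added after the data were seen.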

Additional observations from a re-analysis of the deposited data

Results flagged for a closer look

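Of 72 groups of 5 libraries, for 34 named members, the members' summed share of counts and their ratio of large to small subunit, 4 held a library far from the others, where chance gives about 1 in 20 groups. In 3 of these the library was MDA-MB-231 MitoQ 2, the library that stood apart on the second principal component. It held 76.3 CPM of MRPS30 (next highest 61.6), 70.5 CPM of MRPL35 (next 64.2) and 44.2 CPM of MRPL30 (next 40.1). The fourth was MDA-MB-231 control 4, with 98.2 CPM of MRPS16 (next lowest 108).

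The effect of MitoQ differed between lines, by the interaction test of edgeR, in 19 named members. The SKBR3 effect was higher than that in MDA-MB-231 for MRPL41 (0.65), MRPS34 (0.59), MRPL12 (0.59), MRPS12 (0.52), MRPL4 (0.49), MRPL14 (0.48), MRPS28 (0.42), MRPL35 (0.41), MRPL2 (0.36), MRPL51 (0.35), MRPL30 (0.34), MRPL13 (0.33) and MRPS27 (0.29), on the log2 scale. It was lower for MRPL40 (-0.53), MRPS10 (-0.41), MRPS16 (-0.31), MRPL10 (-0.30), MRPS30 (-0.28) and MRPL58 (-0.23). Calls for MRPL10, MRPS30 and MRPL58 were lost in 9, 5 and 11 of the alternatives tried, and the cause was not tested.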

How the results depend on the processing

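No named gene changed direction where its change was called in the main fit or in the alternative. Changes of sign between values that were not called were not tracked. Over all comparisons and alternatives 2622 values kept their side of the threshold, 136 fell short of it and 30 newly passed. In MDA-MB-231 plain library totals gave 9 members higher and a median of -0.19; lower counts ranged from 41 (members of recurrent sequence not counted) to 56. Leaving out each library gave 3 to 7 higher (7 without MitoQ 2), 47 to 51 lower and medians of -0.28 to -0.21 (without MitoQ 2). In SKBR3 DESeq2 called 27 lower and 0 higher, the single fit 18 and 0, and no filter 2 higher; leaving out each library gave 0 to 4 higher (4 without control 3), 19 to 39 lower and medians of -0.18 to -0.13. For the interaction plain library totals gave 13 lower and a median of 0.027, and no filter 4 lower; leaving out each library gave 20 to 26 higher, 3 to 8 lower (3 without SKBR3 control 3 or MitoQ 1) and medians of 0.092 to 0.15. Between controls the median was 0.021 with no filter, 0.16 with a filter at 1 CPM and 0.0046 without members of recurrent sequence. Leaving out each library there gave 32 to 37 higher, 27 to 30 lower and medians of 0.052 to 0.11. The causes were not tested.

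Nothing in the labels says whether same-numbered control and MitoQ libraries share more than a number. Their deviations correlated at -0.089 to 0.0048 in MDA-MB-231 and -0.0069 to 0.076 in SKBR3. No MDA-MB-231 library correlated best with its own number, and only some SKBR3 libraries did. With so few libraries these values cannot show whether a culture or batch was shared. With the replicate block 47 members fell and 3 rose in MDA-MB-231, 44 and 2 in SKBR3, and the interaction gave 24 higher and 5 lower. Over all genes the block took SKBR3 from 2076 higher and 2126 lower to 2348 and 2410. It took MDA-MB-231 from 4574 higher and 4231 lower to 4343 and 4020. With 3 libraries a group in SKBR3, small changes are the least certain.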
